A study of Homo sapiens with 14 samples.

Results

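The core of domain II of human 28S ribosomal RNA, nt 1312 to 2050 counted from the 5′ end of the mature RNA, was read nucleotide by nucleotide with 3 RNA-acylating reagents. All nucleotides between these positions that had a score with AcIm, AcIN3 and NAIN3 were taken, which gave 739 members out of 5034 scored 28S nucleotides, and the other 4295 scored nucleotides of 28S served for comparison. The stretch begins where the long expansion segment ES7L ends and stops before the part of domain II around ES15L. Its boundaries are approximate. No score chose its members.

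The cells were HEK293, a line derived from human embryonic kidney whose genotype label notes Adenovirus 5 DNA in every group. For the ribosomal RNA, cells received acetylimidazole (AcIm) at 100 mM, the reagent labelled AcIN3 at 200 mM, NAI-N3 (NAIN3) at 100 mM, or, as the solvent control, 10% DMSO. Every exposure lasted 10 min. The labels list 2 biological replicates for each of 7 groups, 14 samples in all, of which 8 are of gel-purified rRNA and 6 of polyadenylated RNA. Scores were analysed here for 3 groups, AcIm, AcIN3 and NAIN3 on rRNA, as 1 mean per reagent and nucleotide. AcIN3 is known here by its label, so no structure is given for it, and because its dose differed its scores are set beside the others, and only its ranks are compared with theirs.

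Domain II belongs to the body of the large ribosomal subunit and forms much of the side that faces the elongation factors. One of its arms is the A-site finger, a long helix that reaches over the aminoacyl-tRNA site towards the small subunit. Another is the stalk base, also called the GTPase-associated centre, which holds the ribosomal protein uL11 and anchors the stalk proteins that help recruit translational GTPases. The domain carries a methylated adenosine at nt 1322, several ribose methylations and a group of pseudouridines in and beside the A-site finger. Acylating reagents attack the 2′-hydroxyl of flexible, reachable nucleotides, the adduct stops or disturbs reverse transcriptase, and a high score is read as an open nucleotide.

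The value in every case is the R-score, a number from 0 to 1 that the authors computed per nucleotide and averaged over replicates. Replicate scores, read depth and a DMSO profile were not analysed here, so a difference between scores has no test against replicate error and no interval, and the text describes means. Scores were ranked among all scored 28S nucleotides of the same reagent (percentile rank, 0 to 100), and the 503 nucleotides with the highest scores of a reagent are called its top 10%. The lowest score in the top 10% was 0.3095 with AcIm, 0.369 with AcIN3 and 0.2395 with NAIN3. The deposited profile is as long as RNA28SN5 and as no other of the 5 copies of the 28S gene listed for GRCh38.p14. That copy is placed at 113348 to 118417 on an unplaced sequence, outside the named chromosomes. It encodes a structural RNA with no coding region. No 28S sequence was used here, so the base at a named position was not checked and no bases are printed.

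Top 10% nucleotides were scarcer in the domain II core than in the rest of 28S with each reagent. With AcIm, 49 members (6.63%) were in the top 10%, against 10.6% of the other 28S nucleotides. With AcIN3 the count was 61 members (8.25%), against 10.3% elsewhere, and with NAIN3 it was 56 members (7.58%), against 10.4% elsewhere. Among 8 stretches into which the scored 28S was divided, the core had the lowest AcIm share. Domain VI with ES39L came next at 7.97%, and ES7L was the highest at 12.8%. With NAIN3 only domain III was lower, at 6.40%. With AcIN3 both domain VI with ES39L (7.33%) and domain III (8.14%) were lower. With the top 20% the AcIN3 shares in core and rest were nearly equal, at a ratio of 0.979. Another comparison used only the other core stretches. These were the domain I core, domain III and domains IV and V, and domain VI with ES39L was not among them. Against them the top 10% ratio was 0.701 with AcIm, 0.887 with AcIN3 and 0.911 with NAIN3. The shortage was slight there with AcIN3 and NAIN3. A top 10% nucleotide of at least one reagent was found at 94 members (12.7%), against 17.6% elsewhere.

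With AcIm and AcIN3 the shortage lay in the upper part of the score range and much less in the typical score. With NAIN3 the median was lower in about the same proportion as the 90th percentile. The median AcIm score was 0.061 in the core and 0.0665 in the rest of 28S, and the 90th percentile was 0.245 in the core and 0.320 in the rest. For AcIN3 the median was 0.1005 in both, while the 90th percentile was 0.3415 in the core and 0.378 in the rest. For NAIN3 the median was 0.027 in the core and 0.0345 elsewhere, and the 90th percentile was 0.192 in the core and 0.246 elsewhere. Scores above 0.5 were reached by 22 members (2.98%) with AcIm, against 4.91% elsewhere. With AcIN3 30 members (4.06%) passed 0.5, against 5.87%, and with NAIN3 18 members (2.44%), against 3.82%. A score of exactly 1 was listed for 4 members with AcIm (0.541%, against 0.605% elsewhere), 4 with AcIN3 (0.541%, against 0.698%) and 6 with NAIN3 (0.812%, against 0.815%).

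**Figure D1:**
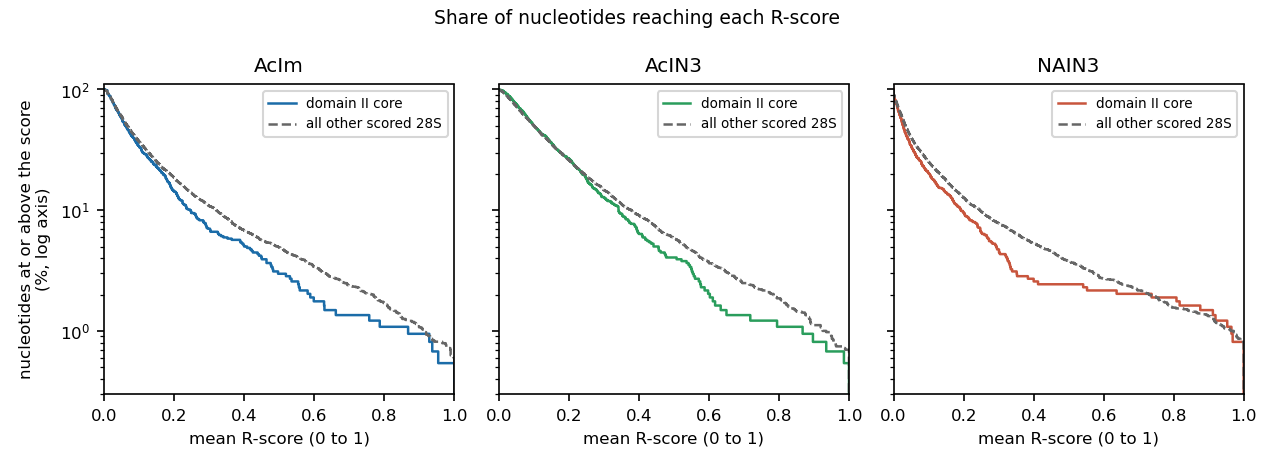
Share of nucleotides (percent, log axis) at or above each mean R-score (0 to 1), one panel per reagent, with the domain II core as a solid line and all other scored 28S nucleotides as a dashed line. The solid line runs below the dashed one over most of the upper range with AcIm and AcIN3, while with NAIN3 the lines meet again above a score of about 0.75.

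Along the core the top 10% share varied, and whether it varied more than an even spread would was not tested. In consecutive windows of 50 nt, the top 10% share was highest at nt 1912 to 1961 with AcIm (12%) and with AcIN3 (18%). With NAIN3 it was highest at nt 1662 to 1711 (16%), followed by nt 1912 to 1961 (12%). The window nt 1662 to 1711 had 14% of its nucleotides in the AcIN3 top 10% but 6% in that of AcIm. The next AcIm windows, each at 10%, began at nt 1462, 1562 and 1712. These 3 windows also had 10% with NAIN3, as did those that began at nt 1762 and 1812. Windows with 10% for AcIN3 began at nt 1562 and 1962.

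The poorest windows included those at the ends of the core. The last one, nt 2012 to 2050, held none of the AcIm top 10% in 39 nucleotides and 1 (2.56%) of each of the other reagents. With AcIm the windows from nt 1812, 1862 and 1962 each had 4%. With NAIN3 the windows from nt 1312, 1412 and 1962 each had 2%. With AcIN3 the windows from nt 1312, 1362, 1512, 1612, 1762 and 1812 tied at 6%. In the first window, nt 1312 to 1361, 32 of 50 nucleotides (64%) lay below rank 50 with all 3 reagents. Over the whole core 266 members (36%) did so, against 32.4% of the other 28S nucleotides.

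**Figure D2:**
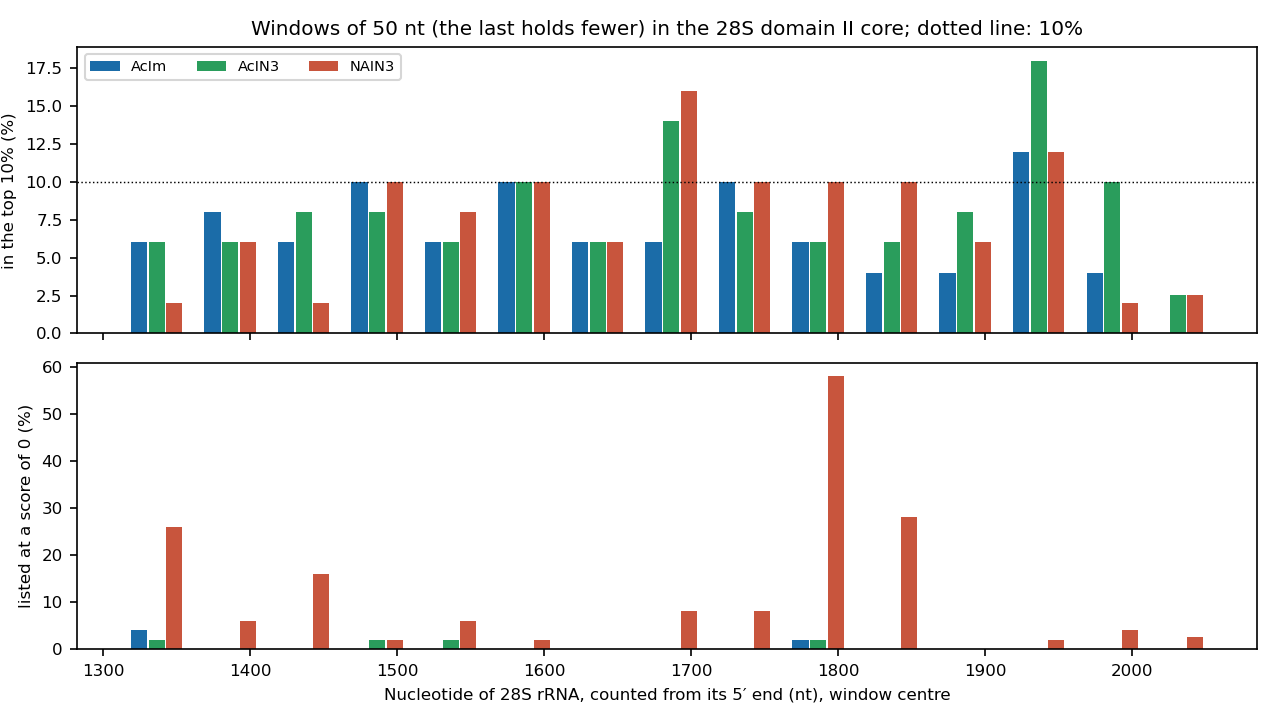
Consecutive windows of 50 nt (the last has 39), plotted at their centre (nt of 28S). The upper panel gives the percent of nucleotides in the 28S top 10% and the lower panel the percent listed at a score of 0, with one bar per reagent. NAIN3 zeros are most frequent in the windows from nt 1762 (29 of 50), nt 1812 (14 of 50) and nt 1312 (13 of 50). AcIm and AcIN3 have at most 2 zeros in any of these windows.

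The methylated adenosine at nt 1322 stood at the top of the scale with every reagent. Its score was 1 with AcIm, 1 with AcIN3 and 1 with NAIN3. Its 5′ neighbour nt 1321 had 0.954 with AcIm and 0.935 with AcIN3, beside 0.1825 with NAIN3. Its 3′ neighbour nt 1323 had 0.4635 with AcIm, 0.369 with AcIN3 and 0.066 with NAIN3. The AcIm and AcIN3 peaks therefore spanned a pair of nucleotides, whereas the NAIN3 peak was 1 nt wide. N1-methylation of adenosine, the modification known at this place, lies on the pairing face of the base and stops reverse transcriptase without any reagent. Stops in DMSO-treated cells at nt 1322 were not analysed here, so their part in these scores was not tested.

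Ribose methylation puts a methyl group on the 2′ oxygen that the reagents acylate. The 10 listed ribose-methylated nucleotides of the core were Gm1316, Am1326, Cm1340, Gm1522, Am1524, Am1534, Gm1625, Gm1760, Am1871 and Cm1881. None of the 10 was in the top 10% of any reagent, and with each reagent 6 of 10 were below rank 50. Their median rank was 30.0 with AcIm, 45.4 with AcIN3 and 31.0 with NAIN3, beside 47.7, 50.1 and 44.3 over all members. Over all members the share below rank 50 was 52.2% with AcIm, 49.7% with AcIN3 and 55.9% with NAIN3, against 49.4%, 49.9% and 48.9% elsewhere, so 6 of 10 is near the background. With 10 sites and the members' top 10% shares given above, a count of 0 is also no result about these sites.

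The lowest of them was Cm1340, where AcIm had 0.0055, AcIN3 0.013 and NAIN3 0. Am1326 had 0.024, 0.029 and 0 in the same order of reagents. Gm1625 had 0.0255, 0.0535 and 0.016. These sites were close to the floor with each reagent. Am1871 had 0.0355 with AcIm, 0.079 with AcIN3 and 0.013 with NAIN3. Cm1881 had 0.0335, 0.0565 and 0.011, and Gm1760, in the A-site finger, had 0.0335, 0.0975 and 0.0625. Gm1760 was below rank 50 with AcIm and AcIN3 but at rank 66.1 with NAIN3.

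The other ribose-methylated sites had intermediate scores. Gm1316 had 0.1 with AcIm, beside 0.2095 with AcIN3 and 0.06 with NAIN3. Gm1522 had 0.187, 0.1245 and 0.209, and Am1524 had 0.149, 0.152 and 0.072. Between this pair, nt 1523 reached 0.4775 with AcIm, 0.5455 with AcIN3 and 0.2955 with NAIN3, in the top 10% of each. Am1534 had 0.1495 with AcIm and 0.2455 with AcIN3 but 0.003 with NAIN3, and its 5′ neighbour nt 1533 was in the top 10% of each reagent (0.5885, 0.575 and 0.301). A methylated site thus stood directly beside a strongly reactive nucleotide in both cases.

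The 11 listed pseudouridines, at which the uracil is joined to the ribose through carbon, were also outside the top 10% of every reagent, which with so few sites is near the background as well. Their highest score was 0.212 with AcIm, 0.3415 with AcIN3 and 0.073 with NAIN3. Below rank 50 lay 6 of 11 with AcIm, 5 of 11 with AcIN3 and 9 of 11 with NAIN3, beside 52.2%, 49.7% and 55.9% of all members. With NAIN3 4 of them were listed at 0, nt 1779, 1781, 1782 and 1792, and all 4 belong to the low stretch described further on. The lists of modified positions come from general knowledge of human rRNA and use the numbering of the mature RNA.

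A set of 26 members (3.52%) was in the top 10% of all 3 reagents at once, against 4.12% of the other 28S nucleotides. The highest were nt 1322 and nt 1766, each at 1 with every reagent, and nt 1409, where AcIm gave 1, AcIN3 0.9855 and NAIN3 1. Next to these stood nt 1820, with 0.937, 0.8675 and 0.876, and nt 1930, with 1, 1 and 0.637. Position 1481 had 0.757 with AcIm, 0.536 with AcIN3 and 0.9685 with NAIN3. Some of these 6 nucleotides have a neighbour about as high with one reagent, such as nt 1321 with AcIm and nt 1765 with NAIN3.

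Further members of this set favoured one side or the other. AcIm was higher than NAIN3 at nt 1896 (0.787 with AcIm, 0.611 with AcIN3, 0.3245 with NAIN3). It was also higher at nt 1958 (0.868, 1 and 0.2475) and, with a smaller gap, at nt 1605 (0.581, 0.7945 and 0.326). NAIN3 was the higher one at nt 1700 (0.4485 with AcIm, 0.424 with AcIN3, 0.9195 with NAIN3) and at nt 1705 (0.628, 0.6335 and 0.965). The same held at nt 1718 (0.6615, 0.4775 and 0.912), at nt 1755 (0.4825, 0.5565 and 0.808) and at nt 1765 (0.556, 0.5495 and 1). The remaining 12 were nt 1419, 1496, 1523, 1533, 1563, 1592, 1598, 1638, 1681, 1832, 1939 and 1982. Their scores ran between 0.324 and 0.5885 with AcIm, between 0.4095 and 0.650 with AcIN3 and between 0.241 and 0.737 with NAIN3.

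**Figure D3:**
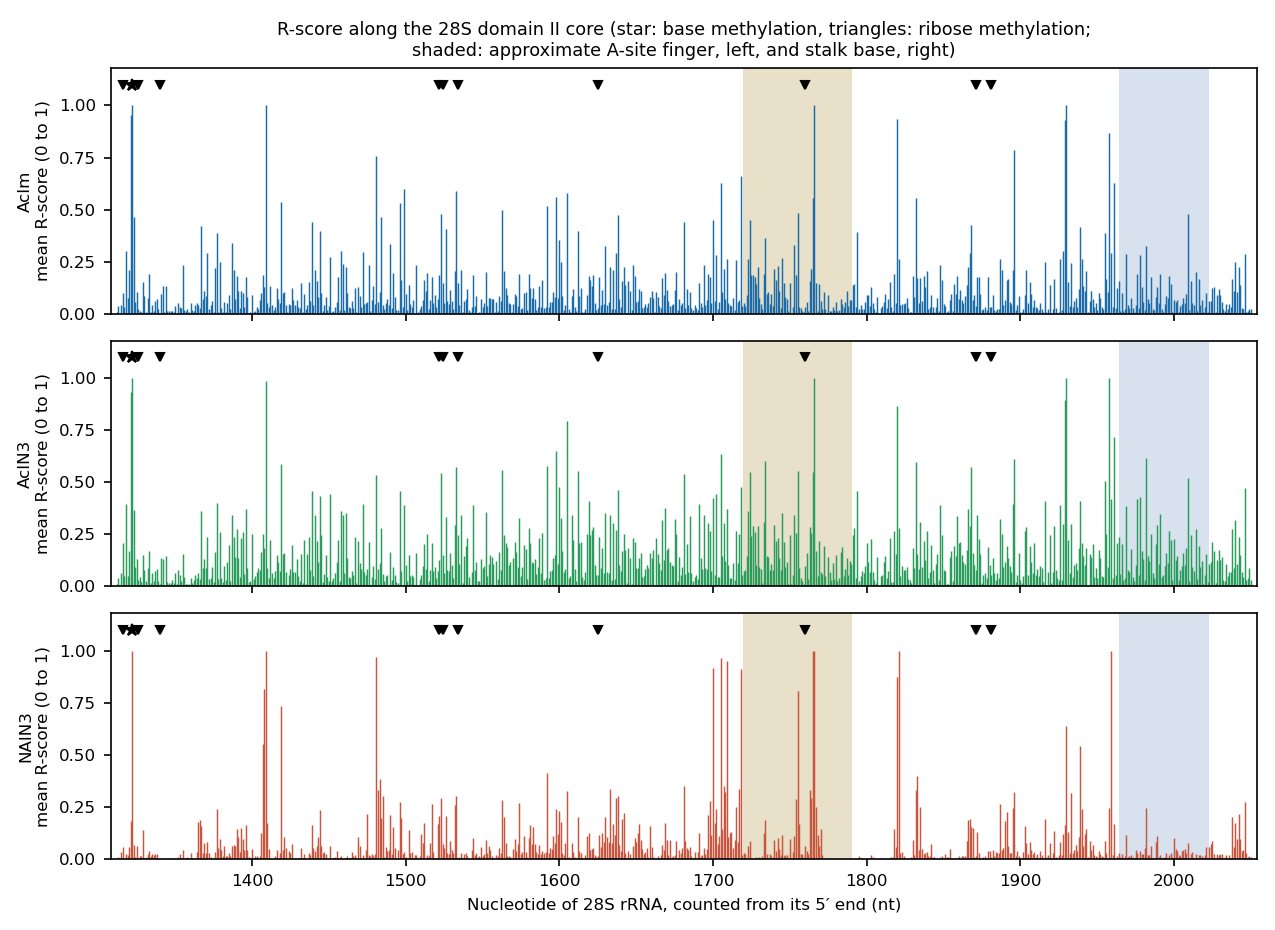
Mean R-score (0 to 1) at each nucleotide of the domain II core with AcIm, AcIN3 and NAIN3, from top to bottom. The star marks nt 1322, triangles mark the 10 ribose-methylated nucleotides, and shading marks the approximate A-site finger (left) and stalk base (right). Peaks at nt 1322, 1409, 1766, 1820 and 1930 stand out in each panel, and no triangle sits over a top 10% score.

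AcIm and NAIN3 were matched in dose and time, and their profiles are set against each other here at single nucleotides. Equal dose does not put the scores of different reagents on the same scale, so a higher score with AcIm or NAIN3 describes the listed values only. The AcIm score was above the NAIN3 score at 564 members (76.3%), compared with 71.5% of the rest of 28S. Spearman's rho between the profiles was 0.607 over the 739 members and 0.626 over the other 4295 nucleotides. Pearson's r was 0.688 in the core and 0.622 in the rest. The top 10% nucleotides shared by both numbered 26, which is 53.1% of the 49 of AcIm and 46.4% of the 56 of NAIN3. In the rest of 28S the shared nucleotides were 50.9% of those of AcIm and 51.7% of those of NAIN3. These correlations are descriptions across nucleotides, which are neighbours on one RNA and may share one DMSO background.

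For the other 2 of the 3 pairs, rho between AcIm and AcIN3 was 0.935 in the core and 0.873 in the rest of 28S. Between AcIN3 and NAIN3 it was 0.572 in the core and 0.562 in the rest. Both pairs with NAIN3 had a higher rho in the domain I core and in domain III than here. With AcIN3 it was 0.677 and 0.644 there, and with AcIm 0.690 and 0.646. Domain III gave 0.939 for AcIm and AcIN3, so the value of the core is not the highest of the stretches. Of the strongest nucleotides, AcIm and AcIN3 shared 41, which is 83.7% of the 49 of AcIm and 67.2% of the 61 of AcIN3, beside 73.6% and 75.6% in the rest. AcIN3 and NAIN3 shared 31, or 50.8% of the 61 and 55.4% of the 56, beside 45.5% and 45.0% in the rest.

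The very high scores of AcIm and NAIN3 coincided at some nucleotides and not at others. A score of at least 0.75, a level chosen after the values were seen, was found at 10 members with AcIm (1.35%, against 2.05% elsewhere). It was found at 9 with AcIN3 (1.22%, against 2.21%) and at 14 with NAIN3 (1.89%, against 1.91%). AcIm and NAIN3 had 5 of these in common (0.677%, against 0.745%), nt 1322, 1409, 1481, 1766 and 1820. At 9 members NAIN3 alone of the pair reached this level (1.22%, against 1.16%), and 4 of them (0.541% of members, against 0.163% elsewhere) lie directly beside an AcIm score of at least 0.75. They are nt 1408, 1765, 1821 and 1959. At nt 1409, 1766 and 1820, the AcIm neighbours of the first 3, NAIN3 was above 0.75 too, so of these 4 only nt 1959 lies beside an AcIm peak at which NAIN3 stayed below this level. The other 5, nt 1700, 1705, 1709, 1718 and 1755, lie just before and within the A-site finger.

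The scores at these places were as follows. At nt 1958 the score was 0.868 with AcIm and 0.2475 with NAIN3, and at the next nucleotide, nt 1959, it was 0.290 with AcIm and 1 with NAIN3. AcIN3 had 1 at nt 1958 and 0.4185 at nt 1959. At nt 1821 AcIm had 0.265 and NAIN3 had 1, although both were high at nt 1820. NAIN3 thus scored highest on the 3′ nucleotide of each of these pairs. At nt 1408, just 5′ of nt 1409, AcIm had 0.130 and NAIN3 had 0.817. Position 1929 had 0.9285 with AcIm, 0.897 with AcIN3 and 0.164 with NAIN3, beside nt 1930, where all 3 were high. Position 1961, among the 10 highest of AcIN3, had 0.629 with AcIm, 0.718 with AcIN3 and 0.1675 with NAIN3.

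The order of replicates could be deduced at a few members, because a mean of 2 scores that each lie between 0 and 1 limits both of them. By this bound both AcIm replicates were above both NAIN3 replicates at 4 members (0.541%), against 1.19% elsewhere. They were nt 1321, 1929, 1958 and 1499, the last with 0.5985 for AcIm and 0.035 for NAIN3. Both NAIN3 replicates were above both AcIm replicates at 4 members, against 0.908% elsewhere, namely nt 1408, 1709, 1821 and 1959. At nt 1709 the scores were 0.264 with AcIm and 0.953 with NAIN3. At all other members the means alone do not order the replicates of these reagents.

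Full opposition between AcIm and NAIN3, a top 10% score with one and a rank below 50 with the other, was rare in the core. It occurred with AcIm high at 1 member (0.135%), against 0.838% of the other 28S nucleotides, and with NAIN3 high at 2 members (0.271%), against 0.605%. The first was nt 1794, listed at 0.3935 for AcIm, at 0.4565 for AcIN3 and at 0 for NAIN3. The others were nt 1482, where AcIm had 0.0575, AcIN3 0.084 and NAIN3 0.3315, and nt 1485, with 0.0425, 0.058 and 0.301. Both follow closely on the peak at nt 1481. Of the nucleotides between them, nt 1483 had 0.106 with AcIm, 0.1115 with AcIN3 and 0.3835 with NAIN3, whereas nt 1484 was high with AcIm (0.4635, in its top 10%) and had 0.279 with AcIN3 and 0.197 with NAIN3. With the top 20% in place of the top 10% the counts were 18 and 11, and with the top 5% both were 0.

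The NAIN3-high pair nt 1482 and nt 1485 was also opposed to AcIN3 (0.271%, against 0.885% elsewhere). AcIN3 was in its top 10% with NAIN3 below rank 50 at 5 members (0.677%), against 1.07% elsewhere. Besides nt 1794 they were nt 1318 (0.3945 with AcIN3, 0.0255 with NAIN3), nt 1472 (0.394 and 0.019), nt 1848 (0.3885 and 0.0095) and nt 1976 (0.4175 and 0.0315). AcIm and AcIN3 opposed each other at 0 members in either direction, against 0.0698% elsewhere with AcIm high and 0% with AcIN3 high.

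**Figure D4:**
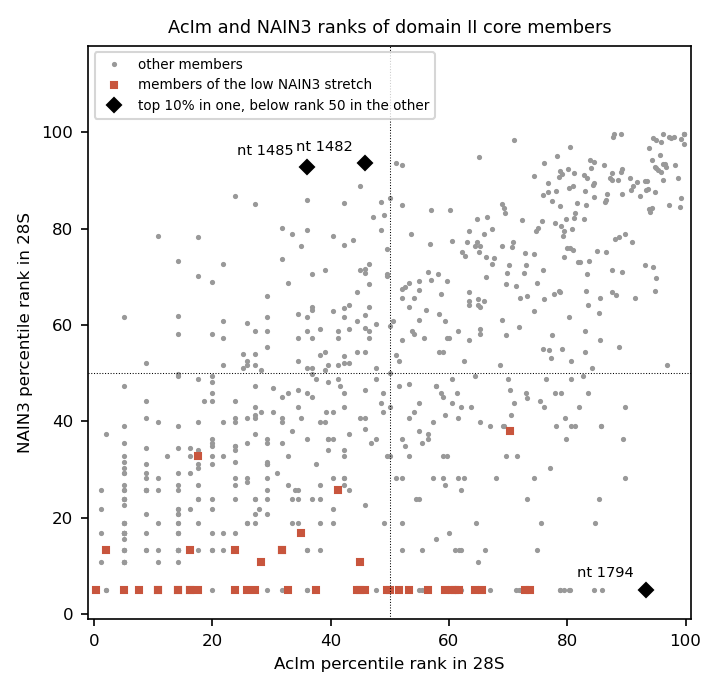
Percentile rank among scored 28S nucleotides (0 to 100) with AcIm on the horizontal axis and NAIN3 on the vertical axis, one point per member of the domain II core. Squares are the 43 members of nt 1772 to 1814, which lie in the lower part of the NAIN3 axis over a wide range of AcIm ranks, and diamonds are nt 1794, 1482 and 1485.

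The longest run of NAIN3 zeros in the scored 28S lay in the core. Nucleotides 1775 to 1785 were all listed at 0 with NAIN3, 11 in a row, and the longest such run elsewhere had 10 (nt 4065 to 4074). Further runs followed at nt 1787 to 1792 (6 nt), nt 1798 to 1801, nt 1805 to 1808 and nt 1811 to 1814 (4 nt each). From nt 1772 to 1814, a stretch of 43 nt delimited after its scores had been seen, NAIN3 was at 0 on 32 nucleotides (74.4%) and reached at most 0.021. The densest 50 nt of the core held 32 NAIN3 zeros, and no 50 nt elsewhere in 28S held more than 22.

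AcIm and AcIN3 gave scores above 0 at all but 1 of the same 43 nucleotides, nt 1808, where both were at 0. The AcIm median there was 0.0415 and the highest score 0.3935, at nt 1794. The AcIN3 median was 0.073 and the highest score 0.4565, at the same nucleotide. These medians are below those of the whole core with both reagents (0.061 for AcIm, 0.1005 for AcIN3), so the stretch was a quiet one for them too. The stretch covers the 3′ part of the approximate A-site finger and what follows it, and holds 4 of the listed pseudouridines.

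Strong NAIN3 peaks framed the stretch on both sides. On its 5′ side nt 1765 and 1766 both had a NAIN3 score of 1, with 0.556 and 1 for AcIm and 0.5495 and 1 for AcIN3. On its 3′ side nt 1820 and 1821 had NAIN3 scores of 0.876 and 1. A score of 0 may stand for low reactivity or for a position with little coverage, which was not tested, since depth is unknown.

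**Figure D5:**
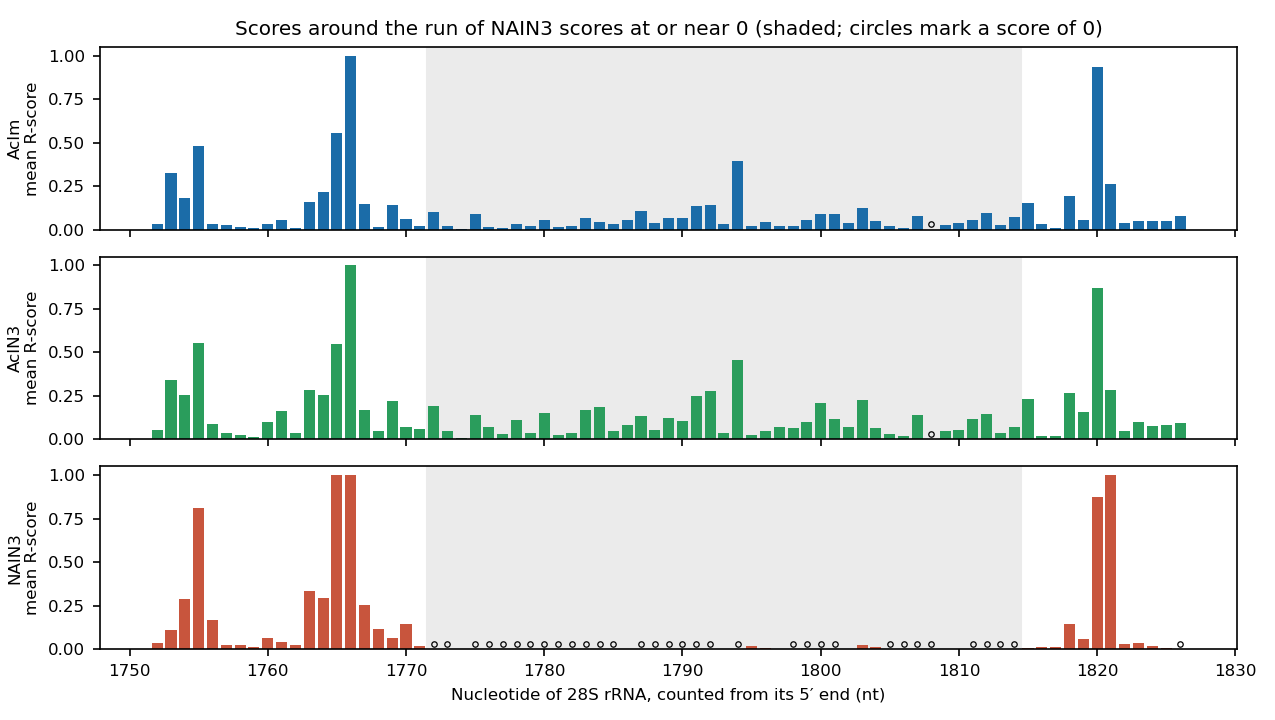
Mean R-score (0 to 1) at nt 1752 to 1826 with AcIm, AcIN3 and NAIN3, from top to bottom. Grey marks nt 1772 to 1814 and open circles mark scores of 0, of which NAIN3 has 32 in the grey stretch and AcIm and AcIN3 have 1 each.

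Of the NAIN3 zeros of the core, 32 lay in this stretch and 52 outside it. In all, 84 members (11.4%) were at 0 with NAIN3, against 9.97% elsewhere. Without the 43 nucleotides the share was 52 of 696 (7.47%), a decrease that follows from how the stretch was delimited, and stretches rich in zeros were kept in the rest. Zeros with the other reagents were few, 3 members (0.406%) against 0.815% elsewhere with AcIm and 4 members (0.541%) against 1.51% with AcIN3. The rho between AcIm and NAIN3 was 0.634 without the stretch and −0.12 within it, where NAIN3 had almost no range. Another 8 NAIN3 zeros in a row stood at nt 1339 to 1346, around Cm1340, where AcIm had a median of 0.0178 and AcIN3 of 0.0228.

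Quiet and open runs shared by all reagents were short. The longest with every reagent below rank 50 were nt 1345 to 1354 (10 nt) and nt 1356 to 1363 (8 nt), near the 5′ end of the core, with AcIm medians of 0.015 and 0.0185, AcIN3 medians of 0.0238 and 0.0248 and NAIN3 medians of 0.005 and 0.003. Next came nt 1795 to 1799 (5 nt) and several of 4 nt, the first at nt 1334 to 1337 and nt 1372 to 1375. The longest run of this kind elsewhere in 28S had 16 nt (nt 2109 to 2124). Runs at rank 75 or above with every reagent reached 4 nt, at nt 1763 to 1766 and nt 1928 to 1931, then 3 nt at nt 1753 to 1755 and nt 1866 to 1868, then 2 nt, first at nt 1321 to 1322. The longest elsewhere had 7 nt (nt 4026 to 4032). Rank 75 or above with all reagents was found at 91 members (12.3%), against 12.9% elsewhere.

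In the approximate A-site finger, nt 1720 to 1790, 6 of 71 nucleotides (8.45%) were in the AcIm top 10%, 5 (7.04%) in that of AcIN3 and 7 (9.86%) in that of NAIN3. Outside the core these shares were 10.6%, 10.3% and 10.4%, and over the whole core they were 6.63%, 8.25% and 7.58%. On counts of 5 to 7, the arm was thus above the core with AcIm and NAIN3 and below it with AcIN3. The median was 0.069 with AcIm, beside 0.115 with AcIN3 and 0.018 with NAIN3. NAIN3 was at 0 on 21 of 71 (29.6%, against 9.97% outside the core), and the arm overlaps the low stretch. Runs of reactive nucleotides stood at nt 1753 to 1755 and nt 1763 to 1766. Just before the arm on its 5′ side, nt 1700, 1705, 1709 and 1718 each had a NAIN3 score above 0.9.

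The approximate stalk base, nt 1965 to 2022, had fewer strong NAIN3 scores than the core as a whole (1.72% in the top 10%, beside 7.58%). Of its 58 nucleotides 2 (3.45%) were in the AcIm top 10%, 5 (8.62%) in that of AcIN3 and 1 (1.72%) in that of NAIN3. The shares over the core were 6.63%, 8.25% and 7.58%, and outside it 10.6%, 10.3% and 10.4%. The AcIN3 share was thus near that of the core, and the low NAIN3 share rests on a count of 1. The median was 0.053 with AcIm, beside 0.110 with AcIN3 and 0.0208 with NAIN3. The highest scores were 0.481, 0.6175 and 0.247 in the same order. No nucleotide of the stalk base had a score above 0.5 with AcIm or NAIN3.

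The stalk base nucleotides in the top 10% of any reagent were 5. Position 1982 was the only one shared by all reagents, where AcIm had 0.324, AcIN3 0.6175 and NAIN3 0.247. Position 2009 had 0.481, 0.5215 and 0.076, high with AcIm and AcIN3. The others were in the top 10% of AcIN3 alone. They were nt 1969 (0.2845, 0.386 and 0.116), nt 1976 (0.189, 0.4175, 0.0315) and nt 1978 (0.2835, 0.43, 0.041). Within the stalk base rho was 0.697 between AcIm and NAIN3 over these 58 nucleotides.

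The boundaries of the core fell on nucleotides with low scores. At the first member, nt 1312, AcIm had 0.009, AcIN3 0.013 and NAIN3 0.002, while nt 1311 before it had 0.0495, 0.0385 and 0.0425. The last member, nt 2050, had 0.022, 0.031 and 0.0095, and nt 2051 after it had 0.052, 0.093 and 0.0205. No peak is cut by either end.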

How the data were processed

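Acylated rRNA of HEK293 cells was profiled with AcIm, AcIN3 and NAIN3. Each score was used as deposited by the authors, who had averaged it over 2 replicates per nucleotide on a scale from 0 to 1. The submitters' processing notes name Bowtie2 and GRCh38 without versions. How the score is calculated, whether DMSO stops are subtracted, what depth was required and which reference was aligned to is not given in the sources used here. A score bounded by 0 and 1 has no order at either end, and depth is unknown, so no interval is given for any score or share. All member scores fell on steps of 0.0005, with 47.9% on odd steps for AcIm, 50.6% for AcIN3 and 41.7% for NAIN3.

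Percentile ranks (ties averaged) and the top 10% (ties by position) were taken over all 5034 scored nucleotides. Members were set by position and not by score, although they and the lists were chosen with earlier results of these data known. Nucleotides named were the 10 highest per reagent, all opposed ones, listed modified sites, extreme windows, the 5 longest runs and the boundaries. The stretch nt 1772 to 1814, the level of 0.75 and the shared top set were chosen after the values were seen. In simulated profiles of 5034 nucleotides, NAIN3 was a near copy of AcIm set to 0 at 15 members. The call returned these 15 and 0 others in the core, which checks the code only and does not measure false calls. The work used matplotlib 3.10.9, scipy 1.17.1, pandas 2.3.3, numpy 2.4.6 and Python 3.11.15. Alternatives were other limits for the top and the low class, moved boundaries, another comparison set, other windows, 5-nt means and shifted profiles.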

Additional observations from a re-analysis of the deposited data

How the results depend on the processing

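Of 99 alternative values, 67 stayed within the limits set for no change and 32 moved. For shares and medians the limits were 95% intervals over nucleotides. These treat neighbours as independent, so they only sort the alternatives. None was labelled reversed, but counts have no sign to change, and the AcIN3 median difference of 0 could not be labelled so. Its alternatives ran from −0.0085 to 0.0055. The ratio of the top 10% share in the core to that in the rest, 0.627 with AcIm, was 0.832 with the top 20%, that of 0.802 with AcIN3 was 0.979 there, and 0.728 with NAIN3 was 0.503 with the top 5%. With only the other core stretches, without domain VI with ES39L, for comparison the ratios were 0.701 with AcIm, 0.887 with AcIN3 and 0.911 with NAIN3. The difference in median score, core minus rest, of −0.0055 with AcIm was −0.0177 for means. For NAIN3, −0.0075 was −0.0186 for means and −0.0045 with the core shortened by 50 nt at each end. The rho between AcIm and NAIN3, 0.607, was 0.707 for 5-nt means, 0.107 with NAIN3 read 1 nt 3′ and 0.232 with it read 1 nt 5′. Between AcIN3 and NAIN3 these shifts gave 0.065 and 0.185 in place of 0.572. Opposed members with AcIm high, 1, became 0 with the top 5%, 18 with the top 20% and 4 with ranks within the core. Those with NAIN3 high, 2, became 0 with low below rank 25, 0 with the top 5% and 11 with the top 20%. The lowest median NAIN3 rank of a window, 5.09, was 24.8 with windows of 100 nt. No paired analysis was possible because the scores are means over the replicates, so leaving out a replicate was not run either. Depth is unknown and limits what a score of 0 can say.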

Other observations

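Zeros with AcIm and AcIN3 were single nucleotides in the core. Positions 1314 and 1808 were at 0 with all 3 reagents, and nt 1351 was at 0 with AcIm and NAIN3 beside 0.013 with AcIN3. Position 1489 was at 0 with AcIN3 although AcIm and NAIN3 both had 0.044, and nt 1558 was at 0 with AcIN3 and NAIN3 beside 0.009 with AcIm. Between nt 1725 and 1727, in the approximate A-site finger, NAIN3 was at 0 on 3 nucleotides in a row where AcIm ranged between 0.175 and 0.188 and AcIN3 between 0.242 and 0.290. Nucleotides with AcIm above NAIN3 made up 97.7% of the stretch nt 1772 to 1814 and 89.7% of the stalk base, beside 76.3% of the core. The first of these shares follows from how that stretch was delimited, by NAIN3 scores at or near 0, and is no separate result. No cause was tested for any of these values.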
